A study of Mus musculus with 2 samples.

Results

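Immature B lineage cells outside the cell cycle made up 320 of the 2478 cells examined in the 2 brain leukocyte libraries, 264 in the wild-type (WT) library and 56 in the twitcher (twi) library. They were chosen by their own counts of unique molecular identifiers (UMIs, each standing for 1 captured transcript). A cell had at least 2 UMIs of *Cd79a* and *Cd79b*, the signaling chains of the B cell receptor, and none of *Cd3d*, *Cd3e* and *Cd3g* of the T cell receptor complex. It had at least 1 UMI of the 6 early B genes *Rag1*, *Rag2*, *Sox4*, *Vpreb1*, *Igll1* and *Dntt*, fewer than 2 UMIs of the proliferation genes *Mki67*, *Top2a* and *Birc5*, and under 1% of its UMIs from the neutrophil genes *S100a8* and *S100a9*. Mitochondrial transcripts were at most 15% of UMIs. Levels of these genes are therefore given as description.

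The study compared brains of twi mice, a model of globoid cell leukodystrophy (Krabbe disease) that lacks the lysosomal enzyme galactosylceramidase, with their WT littermates. Mice were C57Bl/6 by the labels (C57BL/6J in the study's methods), galc-/- or galc+/+, untreated and were examined at postnatal day 21. Leukocytes from half-brains, with the meninges removed, were enriched on Percoll, sorted as CD45+, the surface marker of all nucleated blood-derived cells, and pooled from 2 to 3 animals into 1 droplet library per genotype. With 1 library per genotype there was no test between genotypes, and every 95% interval below covers counting error only, not the spread between animals.

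B cells arise from progenitors in the bone marrow through an ordered series of stages. Pro-B cells express terminal transferase (*Dntt*), and pro-B and early pre-B cells the surrogate light chain (*Igll1*, *Vpreb1*). The recombinase (*Rag1*, *Rag2*) acts while heavy and then light chain genes are rearranged, and is turned off once a functional receptor is displayed. Immature and transitional cells then acquire CD20 (*Ms4a1*), MHC class II, CD23 (*Fcer2a*) and the other surface molecules of follicular B cells. B lineage cells of these early stages are also known from the meninges and skull marrow of the healthy mouse. Transcripts of the immunoglobulin genes were not analysed here, so stage was read from other genes only.

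The gated cells fell into 3 classes that do not overlap, each named by the earliest gene found: *Igll1*, *Vpreb1* or *Dntt*; else *Rag1* or *Rag2*; else *Sox4* alone. The promoters of 1 gene from each class are shown because these transcripts set the order in which the classes are described. Each runs 5′ to 3′ on the gene's strand from 250 bases before the RefSeq start to 50 bases after it, in build GRCm38.p6. Capitals mark CCCNNGGG, the core bound by the early B cell factor EBF1, and CANNTG, the E-box bound by E2A proteins. The intervals are chr16:16863936-16864235 (minus strand, *Igll1*), chr2:101649483-101649782 (minus strand, *Rag1*) and chr13:28953650-28953949 (minus strand, *Sox4*).
Igll1: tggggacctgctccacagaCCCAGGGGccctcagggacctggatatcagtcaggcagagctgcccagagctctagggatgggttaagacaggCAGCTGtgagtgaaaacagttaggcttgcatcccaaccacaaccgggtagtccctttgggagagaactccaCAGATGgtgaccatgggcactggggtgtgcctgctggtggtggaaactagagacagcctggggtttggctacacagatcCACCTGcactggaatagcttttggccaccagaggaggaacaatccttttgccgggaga
Rag1: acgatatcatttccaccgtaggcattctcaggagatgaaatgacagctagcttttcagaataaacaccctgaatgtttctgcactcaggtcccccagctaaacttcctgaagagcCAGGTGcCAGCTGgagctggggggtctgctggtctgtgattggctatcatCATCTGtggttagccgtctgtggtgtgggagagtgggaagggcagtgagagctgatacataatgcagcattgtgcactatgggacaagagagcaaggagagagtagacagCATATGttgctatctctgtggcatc
Sox4: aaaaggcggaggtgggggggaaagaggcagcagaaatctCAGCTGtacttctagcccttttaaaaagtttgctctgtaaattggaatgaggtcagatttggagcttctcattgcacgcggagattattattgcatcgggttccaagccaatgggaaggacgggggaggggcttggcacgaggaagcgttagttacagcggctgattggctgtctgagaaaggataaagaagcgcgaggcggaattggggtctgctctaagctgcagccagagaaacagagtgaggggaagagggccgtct
Both patterns read the same on either strand. The *Igll1* promoter held 1 match to CCCNNGGG and 3 to CANNTG, the *Rag1* promoter 0 and 4, and the *Sox4* promoter 0 and 1, and no match to one pattern overlapped a match to the other. Among all 32851 promoters of this length, 13.7% held CCCNNGGG and 72.3% held CANNTG. A match describes the letters and not a bound site.

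The immature cells were a smaller share of brain leukocytes in the twi library. They were 20.8% of WT cells (95% exact Clopper-Pearson interval 18.6 to 23.1; 264 of 1271) and 4.64% of twi cells (3.52 to 5.98; 56 of 1207), a twi over WT ratio of 0.223 (exact conditional interval 0.164 to 0.299). The mature B cells, which met the same limits but had no early B UMI, were 19.8% and 6.79% of cells, their ratio being 0.343 (0.264 to 0.441). The cycling B lineage cells were 2.60% and 0.911%. A share is relative: the T cells of the twi library numbered 672 against 231 in the WT library. Set against cells outside the B lineage alone, the immature cells were 26.8% and 5.03%. Within all B lineage cells the libraries were closer, since immature cells made up 48.1% of 549 WT cells (43.8 to 52.4) and 37.6% of 149 twi cells (29.8 to 45.9). That ratio was 0.782 (0.575 to 1.05), an interval that holds 1. It was 0.659 (0.444 to 0.954) with at least 2 early B UMIs, 0.689 (0.488 to 0.955) with thinning before the gate and 0.432 (0.235 to 0.739) without *Sox4* among the early B genes, intervals that lie below 1. In cells with a Y-linked transcript and no *Xist* it was 1.06 (0.581 to 1.80), with the higher share in twi.

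**Figure D1:**
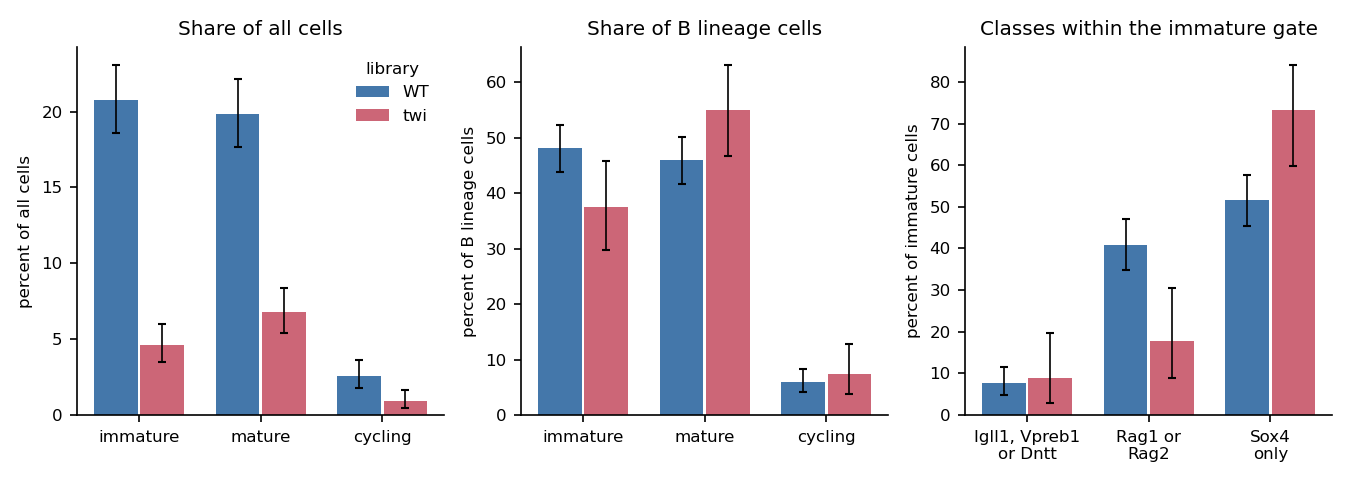
Bars give the percent of all cells (left), of B lineage cells (middle) and of immature cells (right) in the WT and twi libraries, with exact 95% intervals for counting error. The immature bar is 20.8% of WT and 4.64% of twi cells, and within the immature cells the *Rag1* or *Rag2* class is 40.9% and 17.9%.

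The members sat unevenly against the limits of the gate. Only 1 WT and 0 twi cells had exactly 2 *Cd79a* and *Cd79b* UMIs, and 2 WT and 3 twi cells fell just outside with 1. More members lay at the early B limit. A single early B UMI admitted 74 WT cells (28.0%) and 22 twi cells (39.3%), and a further 44 and 10 cells had 2. Just outside, the 252 WT and 82 twi cells of the mature gate had 0. With at least 2 early B UMIs the share of B lineage cells was 34.6% in WT and 22.8% in twi. At the cycling limit, 6 WT and 3 twi members had 1 proliferation UMI, and 2 WT and 0 twi cells with early B UMIs had exactly 2 and stood outside. The median depth was 1964.5 UMIs in WT and 2159 in twi immature cells, against 2008.5 and 2200.5 in mature cells, so the gates were of similar depth. A *Cd3d*, *Cd3e* or *Cd3g* UMI alone kept out 12 WT and 8 twi cells, equal to 4.55% and 14.3% of the members. No cell barcode was shared by the libraries.

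Markers outside the gate fit the B lineage label. *Ebf1*, the transcription factor that commits cells to the B lineage, stood at 4550.0 CPM, that is UMIs scaled to the total of the gate, in WT (exact Poisson interval 4370.3 to 4735.2) and 4400.7 CPM in twi (4036.7 to 4788.8), and had a UMI in 262 of 264 and 56 of 56 cells. *Vpreb3*, a chaperone of the precursor B cell receptor, was at 3232.5 and 3010.2 CPM. *Tifa*, a signaling adaptor, was at 1279.8 and 981.6 CPM. The 3 genes were in 5.19%, 4.33% and 2.16% of WT T cells and in 2.08%, 1.04% and 1.04% of twi T cells, at a median of 2951 and 3506 UMIs per T cell. These shares are the background in cells that should lack the genes. They may be low as a background, since T cells with any *Cd79a* or *Cd79b* UMI were left out. Values of the rule's own genes are a description and say nothing for the label, since a UMI of one of them admitted each cell. *Sox4*, a factor needed for early B cells, had a UMI in 89.8% of WT and 96.4% of twi members and carried most of the gate. *Rag1* had a UMI in 36.7% (97 of 264) and 16.1% (9 of 56), against 1 of 231 WT and 0 of 672 twi T cells, the latter count of 0 (3 counts taken as the floor) allowing a share of cells with a UMI of up to 0.446%. With every cell thinned to 1000 UMIs, *Rag1* was in 24.5% of WT and 9.09% of twi members, 19 and 1 shallower cells being left out. *Sox4* also had UMIs in 11.3% of WT and 6.55% of twi T cells.

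Several lists of markers of other cells were detected, in part through genes that B cells also express. Summed over the 11 genes of the neutrophil and monocyte list, gate genes left out, immature cells carried 679 CPM in WT and 393 CPM in twi, with *Ngp* the most abundant gene in WT at 204 CPM. *S100a8*, the most abundant neutrophil transcript and a gate gene, was at 559.8 and 139.1 CPM. In T cells, which were gated without a limit on it, it was at 2655.1 and 1196.3 CPM. In the immature gate that limit kept out 0 cells in either library that otherwise met the rule. *Hbb-bs*, a globin of red cells, was at 765.3 and 499.0 CPM, near its 795.8 and 409.8 CPM in T cells. The T cell list stood at 30.2 CPM in WT and 115 CPM in twi, with *Cd4* at 1 and 0 UMIs, and the NK cell list at 39.6 and 147 CPM. The microglia list stood at 155 and 131 CPM, with *C1qa* at 5 UMIs in WT and 0 in twi. The part of free RNA in these levels was not tested. The erythroid list stood at 1534 CPM in WT and 1079.7 CPM in twi. The plasma cell list stood at 1065 and 826 CPM, of which *Mzb1*, also expressed in B cells, made 863 and 679 CPM, while *Jchain* had 0 UMIs in both libraries. The plasmacytoid dendritic cell list stood at 4776 and 4319 CPM, of which *Ly6d*, also a B lineage gene, made 4273 and 3714 CPM, while *Siglech* had 1 and 0 UMIs.

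The classes differed in size between the libraries. In WT, 20 cells (7.58%; 4.69 to 11.5) held surrogate light chain or *Dntt* transcripts, 108 cells (40.9%; 34.9 to 47.1) a *Rag1* or *Rag2* UMI without them, and 136 cells (51.5%; 45.3 to 57.7) *Sox4* alone. In twi the numbers were 5 (8.93%; 2.96 to 19.6), 10 (17.9%; 8.91 to 30.4) and 41 (73.2%; 59.7 to 84.2). The share of the *Rag1* or *Rag2* class in twi was 0.437 times that in WT (0.204 to 0.834). With at least 2 early B UMIs it was 0.529 (0.235 to 1.05), with thinning before the gate 0.480 (0.186 to 1.04), and in classes set again after thinning 0.528 (0.204 to 1.15), intervals that hold 1. Without *Sox4* among the early B genes the class was 108 of 128 WT and 10 of 15 twi cells. The share of the *Sox4* class was 1.42 times as large, with an interval (0.977 to 2.03) that holds 1. Of all cells in each library, the *Rag1* or *Rag2* class was 8.50% in WT against 0.829% in twi (ratio 0.0975, 0.0455 to 0.186), and the *Sox4* class was 10.7% and 3.40%, a ratio of 0.317 (0.218 to 0.453). The class holding surrogate light chain or *Dntt* had too few cells to place, with a ratio of 1.18 (0.346 to 3.24). *Sox4* was also found in 86 of the 108 WT cells and 9 of the 10 twi cells of the *Rag1* or *Rag2* class. When members were thinned to 1000 UMIs and classed again, 205 WT and 40 twi cells kept an early B UMI, of which 33.2% and 17.5% were in the *Rag1* or *Rag2* class.

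Among genes the rule did not use, late B cell genes were lower in the *Rag1* or *Rag2* class than in the *Sox4* class. *Ms4a1* (CD20) was at 248 CPM in the WT *Rag1* or *Rag2* class, 2538 CPM in the *Sox4* class and 3538 CPM in mature cells. In twi it was at 141, 3287 and 3043 CPM, the first being the level of the 3-count floor in that class of 10 cells. *Cd74*, the invariant chain of MHC class II, stood at 1351, 11406 and 20674 CPM in WT and at 612, 12876 and 21727 CPM in twi. In the first class, which holds surrogate light chain or *Dntt*, *Ms4a1* was at 823 CPM and *Cd74* at 2724 CPM in WT, and at 994 and 2753 CPM in twi, above the *Rag1* or *Rag2* class in each library. By cells with any UMI the classes did not differ in this way. *Cd74* had a UMI in 10 of 20 WT and 1 of 5 twi cells of the first class, against 55 of 108 and 4 of 10 with *Rag1* or *Rag2*. *Ms4a1* had one in 4 of 20 and 1 of 5 against 20 of 108 and 1 of 10. By cells with many UMIs they did: for the summed late genes given below, 3 of 20 WT and 1 of 5 twi cells of the first class were over 5 UMIs per 1000, against 1 of 108 and 0 of 10. *H2-Aa*, a class II alpha chain, went from 98.2 to 1099.5 to 2199.3 CPM in WT. In twi it went from 47.0 to 1080.5 to 2746.3 CPM, the first being the level of 1 UMI, in 1 of 10 cells. Summed over cells, *Cd74* and *H2-Aa* were thus low with the recombinase, intermediate with *Sox4* alone and high in mature cells in both libraries. *Ms4a1* was instead highest in the *Sox4* class in twi. With at least 2 early B UMIs, the *Sox4* class fell from 136 to 77 WT cells and from 41 to 21 twi cells. Whether its intermediate level reflects a stage or a mix of cells was not tested. *Fcer2a* had 0 UMIs in both earlier classes and was at 67.8 CPM in the WT *Sox4* class, 68.2 CPM in that of twi, and 167 and 275 CPM in mature cells.

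**Figure D2:**
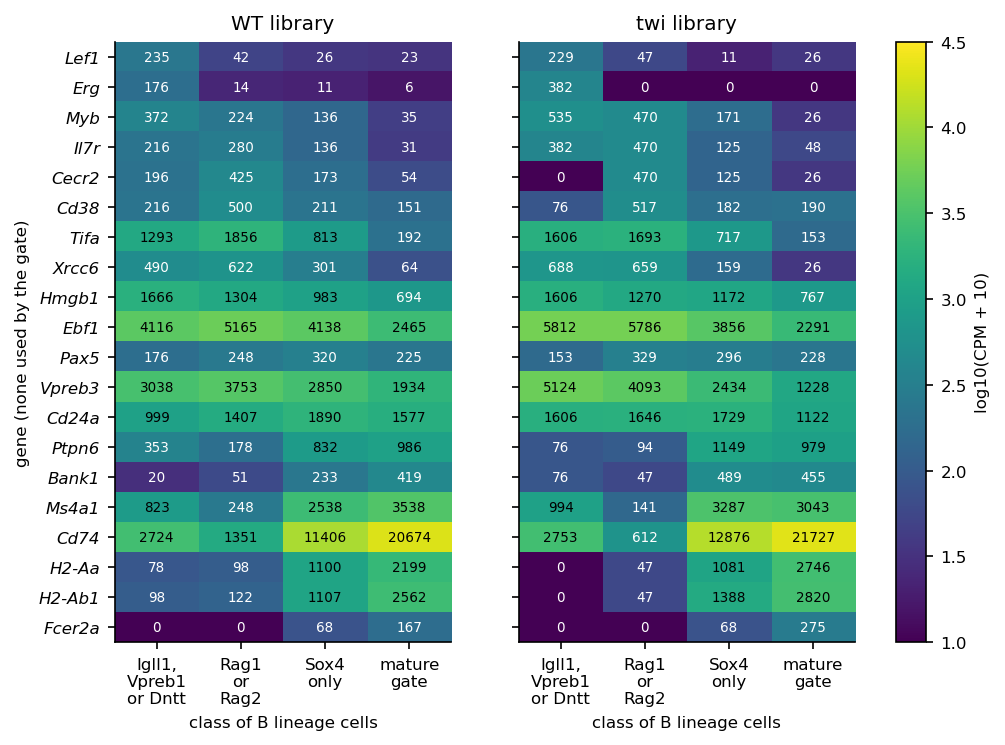
Each cell of the 2 panels gives the CPM of a gene, colored by log10(CPM + 10), in the 3 immature classes and the mature gate of the WT and twi libraries. *Lef1* and *Erg* are highest in the first class, *Tifa*, *Cecr2* and *Cd38* have high values with *Rag1* or *Rag2*, and *Ms4a1*, *Cd74* and *H2-Aa* are highest in the *Sox4* class and mature gate. In twi the first 2 classes hold 5 and 10 cells, where 1 UMI is 76.5 and 47.0 CPM.

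Across all genes the step from the *Rag1* or *Rag2* class to the *Sox4* class was tabulated in WT, where both classes were large. A gene was taken as measured with at least 100 CPM in 1 of the 2 groups and 25 UMIs in the group where it was higher, and as different past 2-fold on the log2 scale with 0.5 UMIs added. Of 1746 measured genes, 72 (4.12%) were higher and 75 (4.3%) lower in the *Rag1* or *Rag2* class. Of the 8 measured MHC class II genes, 7 were lower and 0 higher, with a median log2 ratio of -2.93 against 0.04 over all measured genes. Their summed level was 1893 CPM with *Rag1* or *Rag2* and 15385.7 CPM with *Sox4* alone, a ratio of 0.123 (0.111 to 0.136), and the same ratio in twi was 0.0553 (0.0337 to 0.0856). Of 14 measured genes of B cell receptor signaling, 3 were lower and 0 higher (median -0.54): *Ptpn6*, a phosphatase that restrains the receptor, at 178 against 832 CPM; *Bank1*, a scaffold, at 51.4 against 233 CPM; and *Cd22*, an inhibitory lectin, at 79.5 against 256 CPM. Of 11 measured genes of mature follicular and marginal zone B cells, 3 were lower and 0 higher (median -0.58), among them *Tnfrsf13c*, the receptor for the survival factor BAFF, at 234 against 584 CPM.

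Other genes were higher beside the recombinase. In the list of immature and transitional genes 4 of 10 measured in WT were higher in the *Rag1* or *Rag2* class and 1 lower, with a median log2 ratio of 0.53. In twi, with 10 cells in that class, 1 of 6 measured was higher and 1 lower (median 0.29). The levels that follow are those of WT. *Tifa* was at 1855.6 CPM with *Rag1* or *Rag2* and 813 CPM with *Sox4* alone, *Cecr2* of a chromatin remodeling complex at 425 and 173 CPM, *Cd38* at 500.1 and 211 CPM, and *Cd93*, the AA4.1 antigen of immature B cells, at 159 and 64.0 CPM. *Ms4a1* was the lower gene. Of 19 measured B lineage transcription factors 1 was higher and 2 lower, where 4.12% and 4.3% of all measured genes were. *Irf4*, which promotes light chain rearrangement, was higher at 117 against 26.4 CPM. *Bcl11a* was lower at 18.7 against 192 CPM, and *Pou2f2* (OCT-2) was lower at 103 against 392 CPM. The other 16 of 19 measured factors stayed within 2-fold, with *Ebf1* at 5164.8 against 4138.2 CPM and *Pax5* at 248 against 320.1 CPM. *Il7r*, the receptor for the growth factor IL-7, was at 280.4 against 136 CPM.

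Single cells showed the same division, with overlap. Summing *Ms4a1*, *H2-Aa*, *H2-Ab1* and *H2-Eb1*, a set chosen after their values were seen, 74 of 108 WT cells (68.5%) and 7 of 10 twi cells of the *Rag1* or *Rag2* class had 0 UMIs. In the *Sox4* class 34 of 136 WT cells and 10 of 41 twi cells had 0. In the mature gate 5.56% of WT and 8.54% of twi cells had 0. At over 5 such UMIs per 1000 were 3 of 20 WT and 1 of 5 twi cells with surrogate light chain or *Dntt*, 1 WT and 0 twi cells with *Rag1* or *Rag2*, 56 WT cells (41.2%) and 21 twi cells (51.2%) with *Sox4* alone, and 71.4% and 76.8% of mature cells. *Tifa* went the other way, with a UMI in 91.7% and 100% of cells with *Rag1* or *Rag2*, 50.7% and 46.3% with *Sox4* alone, and 23.4% and 19.5% of mature cells. The *Sox4* class therefore held cells on either side of the late genes in both libraries.

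**Figure D3:**
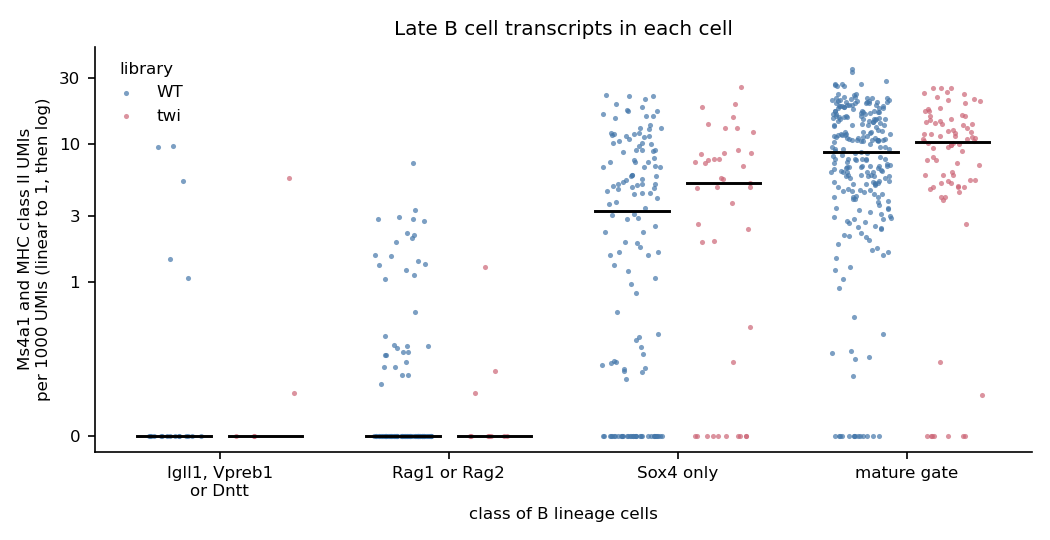
Each point is 1 cell, with *Ms4a1*, *H2-Aa*, *H2-Ab1* and *H2-Eb1* UMIs per 1000 UMIs on an axis linear to 1 and logarithmic above, black lines are medians, and points are spread sideways at random. The medians are 0 in both earlier classes, 3.29 (WT) and 5.23 (twi) in the *Sox4* class, and 8.72 and 10.3 in mature cells.

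The smallest class held the cells with the earliest genes of the rule, and 1 of its members stood apart. That WT cell had 16586 UMIs, 32.5% of the class total, with 83 of the 115 *Dntt* UMIs and all 4 UMIs of the progenitor genes *Flt3* and of *Cd34*, but 1 *Ebf1*, 0 *Cd79a* and 4 *Cd79b* UMIs. Its B lineage transcripts were thus few for its depth. Without it the other 19 WT cells had *Dntt* at 929 CPM, *Igll1* at 1945.4 CPM, *Vpreb1* at 2061.6 CPM and *Ebf1* at 6068.5 CPM. *Lef1*, a factor of pro-B cells, was at 348 CPM in those 19 cells, against 42.1 CPM with *Rag1* or *Rag2* and 26.4 CPM with *Sox4* alone. *Erg* was at 203 CPM against 14.0 and 11.3 CPM. *Myb*, needed for the pro-B stage, was at 436 CPM against 224 and 136 CPM. In the 5 twi cells 1 UMI was 76.5 CPM. There *Lef1* was at 229 CPM, the level of the 3-count floor, *Erg* at 382 CPM (5 UMIs, all in 1 cell), and *Myb* at 535 CPM, in 3 cells. Of the 20 WT cells 10 also had a *Rag1* or *Rag2* UMI, and of the 5 twi cells 3 did. The progenitor list had 30 UMIs in all WT immature cells and 0 in twi, with *Kit* at 1 and 0.

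Comparing immature with mature cells inside each library gave 2 separate readings of the same contrast. In WT, 1791 genes were measured, of which 89 (4.97%) were higher and 72 (4.02%) lower in immature cells. In twi, 1065 were measured, of which 57 (5.35%) were higher and 61 (5.73%) lower. Of 1043 measured in both, 27 (2.59%) were higher and 26 (2.49%) lower in both libraries. The genes named next were ranked by the smaller ratio of the 2 libraries. *Xrcc6* (Ku70), which holds broken DNA ends for joining after the recombinase cuts, was at 449 CPM in immature and 63.9 CPM in mature WT cells, a ratio of 7.02 (4.86 to 10.4). In twi it was at 303 and 26.5 CPM, a ratio of 11.4 (4.49 to 37.3). *Tifa* had ratios of 6.67 (5.40 to 8.32) and 6.40 (4.23 to 9.96). *Smarca4* (BRG1), the motor of a chromatin remodeling complex, had ratios of 7.78 and 6.07, and *Bcl7a*, a subunit of the same complex, 3.96 and 4.72. *Myb* had ratios of 5.57 and 9.89 and *Il7r* was at 202 against 31.0 CPM in WT and 213 against 47.6 CPM in twi. The other 9 of the 15 highest were *Atp1b1*, *Arl5c*, *Dnajc7*, *Elof1*, *Apobec1*, *Il12a*, *Mgst1*, *Akap12* and *Fam53b*, with ratios of 2.52 or more in both libraries. Of the 12 of these 15 genes that matched a RefSeq promoter, 11 held CANNTG and 1 held CCCNNGGG, and of 11 among the 15 lowest 10 and 2 did. Among all genes with a promoter in the table, 20265 of 27025 held CANNTG and 4159 held CCCNNGGG.

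By role, the recombinase and end joining list had 3 measured genes outside the gate in each library, all above 0 on the log2 scale. *Xrcc6* was past 2-fold in both libraries and *Hmgb2*, which bends DNA for the recombinase, in twi alone, where 56 of its 92 UMIs came from 1 cell and its level without that cell was 304 CPM in place of 753 CPM. The *Hmgb2* call in twi thus rests on that cell. *Lig4*, the ligase of the same pathway, was below the level that counts as measured, at 71.6 CPM in immature and 13.6 CPM in mature WT cells and at 32.7 and 5.29 CPM in twi. Of the immature and transitional genes, 4 of 10 in WT and 3 of 8 in twi were higher past 2-fold, with medians of 0.76 and 0.50 against 0.08 and -0.08 over all measured genes. *Myl4* was past 2-fold in both, at 247 against 109 CPM in WT and 393 against 63.5 CPM in twi. *Vpreb3* had ratios of 1.67 in WT and 2.45 in twi, and *Cecr2* 5.11 in WT. Of B lineage factors, 2 of 17 in WT (*Myb*, *Bach2*) and 4 of 15 in twi (*Myb*, *Id3*, *Tcf3*, *Pou2af1*) were higher, against 4.97% and 5.35% of all measured genes, and *Bcl11a* was lower in WT at 136 against 273 CPM. *Ebf1* had ratios of 1.85 (1.72 to 1.98) and 1.92 (1.69 to 2.18). Among survival genes, *Bcl2l1* (BCL-XL) was at 170 against 21.3 CPM and *Bcl2* at 26.4 against 89.1 CPM in WT. In twi they were at 106 against 31.7 CPM and at 49.1 against 132 CPM. *Bcl2* in WT and *Bcl2l1* in twi were below the level that counts as measured. Of the IL-7 and survival list, 2 of 7 measured genes in WT and 1 of 6 in twi were higher past 2-fold. In each library 1 was lower, where 4.02% and 5.73% of all measured genes were. The list medians were -0.31 and -0.36.

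Antigen presentation genes were lower in immature cells. In each library 7 of 8 measured MHC class II genes were lower past 2-fold in immature cells and 0 higher, with medians of -1.64 in WT and -1.46 in twi. Their summed level was 8806 CPM in immature and 28731 CPM in mature WT cells, a ratio of 0.306 (0.297 to 0.317), and 12752 and 30924 CPM in twi, a ratio of 0.412 (0.390 to 0.436). *H2-Ab1* had ratios of 0.239 and 0.357, *H2-Eb1* 0.242 and 0.306, *H2-Aa* 0.272 and 0.286, *H2-DMa* 0.336 and 0.297 and *H2-DMb2* 0.327 and 0.364. *Fcer2a*, the low affinity IgE receptor of follicular cells, had ratios of 0.204 and 0.178. *Ms4a1* was 0.410 times the mature level in WT and 0.820 times in twi. Of mature B cell genes, 2 of 13 in WT and 3 of 11 in twi were lower past 2-fold, against 4.02% and 5.73% of all measured genes. Their medians were -0.41 and -0.40, against 0.08 and -0.08. *Shisa5*, *Anxa6*, *S100a6* and *AW112010* were also among the 15 lowest.

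The remaining genes of the 15 lowest mark other cells and were counted in the mature gate. *Lyz2*, of myeloid cells, was at 822 CPM in WT and 2280.7 CPM in twi mature cells against 119 and 106 CPM in immature cells. *Gzma*, of NK cells, was at 419 and 238 CPM against 15.1 and 16.4 CPM. *Fcer1g*, *Tyrobp* and *Ccl5* showed the same order. The microglia list was at 1069.6 CPM in WT mature cells and 175 CPM in twi mature cells, and at 155 and 131 CPM in immature cells. The mature gate thus held transcripts of other cell types beside the lower genes, whose part in those ratios was not tested. In it 5 WT and 4 twi mature cells lacked *Cd79a*. Asking for a *Cd79a* UMI as well, a setting added after these values were seen, left 17 genes lower in both libraries in place of 26.

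**Figure D4:**
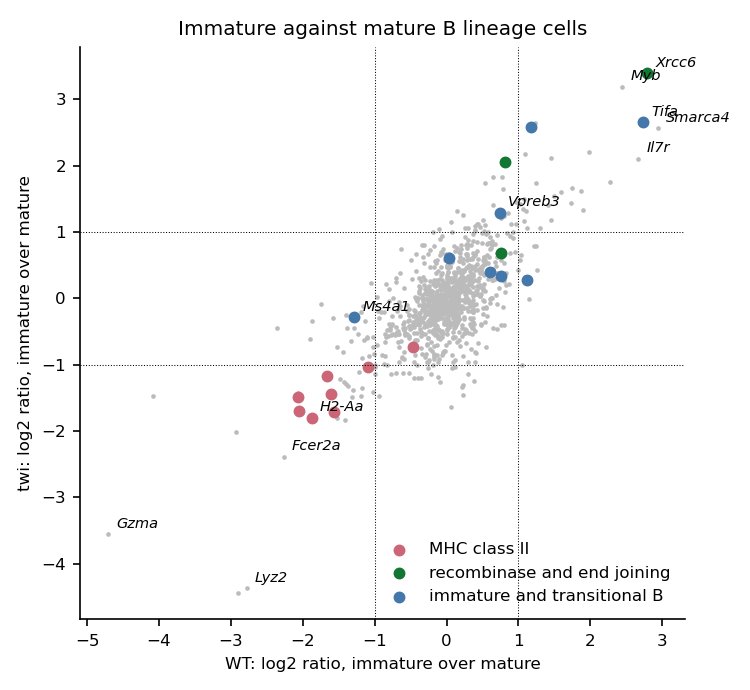
Each point is 1 of the 1043 genes measured in both libraries, at its log2 ratio of immature over mature cells in WT (horizontal) and twi (vertical), with dotted lines at 2-fold. *Xrcc6*, *Tifa*, *Smarca4* and *Myb* lie at the upper right, and the MHC class II genes, *Fcer2a*, *Lyz2* and *Gzma* at the lower left.

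The number of genes that differed between the genotypes depended on the gate and the minimum level. Of 1321 measured genes, 5 (0.379%) were higher and 38 (2.88%) lower in twi past 2-fold. The minimum was uneven, since 1 UMI was 8.18 CPM in twi and 1.88 CPM in WT, and 25 UMIs asked for a higher level in twi. With the same CPM minimum for both, a setting added after the data were seen, 5 of 808 genes were higher and 1 lower. With 1 *Cd79a* or *Cd79b* UMI 37 were higher, and without *Sox4* among the early B genes 156 were lower. With a minimum of 10 UMIs and no CPM minimum, 77 were higher and 570 lower. *Xist*, expressed from the inactive X chromosome of females, led with 37 UMIs in twi and 0 in WT. *Bank1* was at 368 CPM in twi (268 to 493) and 139 CPM in WT (110 to 175), a ratio of 2.64 (1.78 to 3.87), with a UMI in 41.1% and 18.6% of cells. *Serpinb1a*, a protease inhibitor, was at 303 and 124 CPM, *Gimap6*, a lymphocyte GTPase, at 434 and 183 CPM, and *Ankrd44* at 221 and 106 CPM. The other 5 of the 10 highest, *Otud1*, *Dpp4*, *Pxk*, *Ssna1* and *Trp53i11*, were under 2-fold. At the lower end *Camp*, a neutrophil granule gene, was at 16.4 against 102 CPM, and *Retnlg*, another neutrophil gene, at 49.1 against 149 CPM. The other 8 of the 10 lowest, which include *Klf4* at 40.9 against 130 CPM, had between 4 and 6 UMIs in twi.

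Genes that mark stage also differed in level. *Ms4a1* was at 2494.8 CPM in twi and 1449.5 CPM in WT, a ratio of 1.72, and *Cd74* at 9660.3 and 6515.9 CPM, a ratio of 1.48 (1.39 to 1.58). All 6 measured MHC class II genes lay above 0, none past 2-fold, with a median log2 ratio of 0.43 against -0.10 over all genes, and their summed ratio was 1.45 (1.37 to 1.53). Without *Sox4* among the early B genes that ratio was 0.817 (0.618 to 1.06). In the *Rag1* or *Rag2* class the sum was 941 CPM in twi (20 UMIs) and 1893 CPM in WT. Within the *Sox4* class alone the summed MHC class II ratio was 1.11 (1.04 to 1.17), though 5 of 7 measured members lay below 0 with a median log2 ratio of -0.02. There *Ms4a1* had a ratio of 1.30 (1.13 to 1.49) and *H2-Aa* of 0.983 (0.771 to 1.24). *Bank1* was at 489 CPM in twi and 233 CPM in WT there. In that class 6 of 1162 measured genes (0.516%) were higher and 57 (4.91%) lower in twi, the minimum being as uneven as above. *Rag1* was at 98.2 CPM in twi (12 UMIs, 50.7 to 171) and 271 CPM in WT (229 to 319.5), a ratio of 0.362 (0.183 to 0.651). *Igll1* was at 393 CPM in twi and 126 CPM in WT, but 32 of its 48 twi UMIs came from 1 cell, and its level without that cell was 135 CPM. *Sox4* itself was at 1554.2 and 1683.2 CPM, a ratio of 0.923 (0.785 to 1.08).

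**Figure D5:**
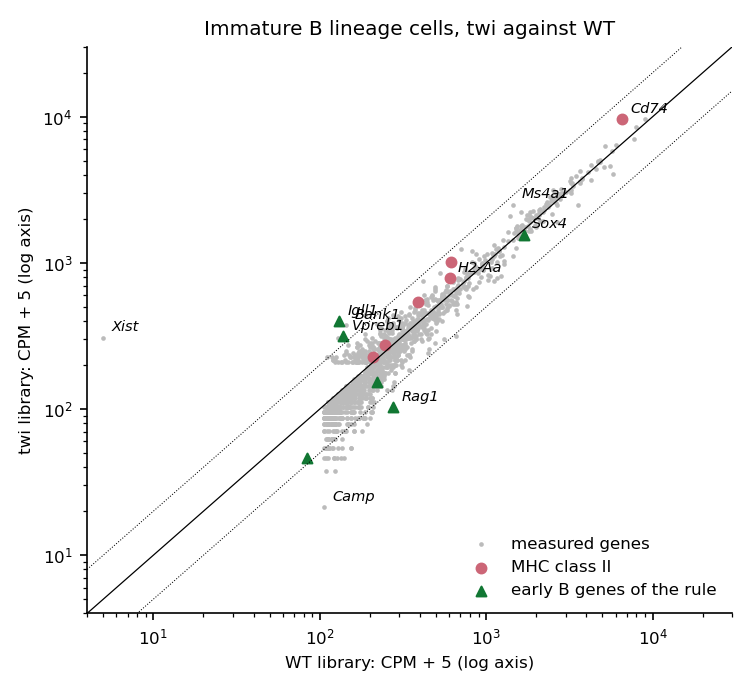
Each gray point is 1 of 1321 measured genes, at CPM + 5 in WT (horizontal) and twi (vertical) immature cells on log axes, with MHC class II genes in red, the 6 early B genes as green triangles, and dotted lines at 2-fold. Most genes lie between the lines, *Bank1*, *Igll1* and *Xist* above them and *Rag1* and *Camp* below.

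The pools also differed in sex. No WT immature cell had an *Xist* UMI, while 16 of 56 twi cells had *Xist* without a Y-linked transcript and another 16 had a Y-linked transcript (*Ddx3y*, *Eif2s3y*, *Kdm5d* or *Uty*) without *Xist*. In WT 99 of 264 cells had a Y-linked transcript. Sex and genotype cannot be told apart in the twi cells with *Xist*, so the shares were repeated in cells with a Y-linked transcript only. There the immature cells were 20.3% of 487 WT cells and 7.73% of 207 twi cells (4.48 to 12.2), a ratio of 0.380 (0.209 to 0.649), and 99 of 209 and 16 of 32 B lineage cells. Among twi cells with *Xist* and no Y-linked transcript they were 16 of 548 (2.92%; 1.68 to 4.70) and 16 of 48 B lineage cells. The *Rag1* or *Rag2* class was 43 of 99 WT and 2 of 16 twi immature cells with a Y-linked transcript, and 3 of the 16 twi cells with *Xist*. Between cells with a Y-linked transcript, the summed MHC class II ratio was 1.10 (0.978 to 1.23).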

How the data were processed

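The 2 libraries of CD45+ brain cells, 1 per genotype, were examined. The deposited values are whole-number UMI counts, not normalized, which the authors made with Cell Ranger 2.1.1 on mm10 per the submitters' processing notes; gene identifiers and barcodes came from the deposited lists. The labels and the study's methods differ on the enzyme and time of dissociation. The WT library held 1278 barcodes and the twi library 1220, both below the approximate number in the study's methods, and 7 and 13 exceeded 15% mitochondrial UMIs. The feature list of 27998 genes held no immunoglobulin constant gene, which is therefore not analysed here. Deposited counts were summed over the cells of a gate and library and divided by all their UMIs to give CPM. Ratios on the log2 scale used a pseudocount of 0.5 UMIs. Shares carry exact Clopper-Pearson intervals, levels exact Poisson intervals and ratios exact conditional intervals, all at 95%, and for counting error only. No test between genotypes was possible, and cells were not treated as replicates. The intervals were tested on simulated data: in the twi over WT comparison, among 2011 genes, they held the true ratio for 96.2% of 53 genes simulated at 0.25-fold, 100% of 48 at 0.5-fold, 95.7% of 1811 unchanged, 100% of 47 at 2-fold and 94.2% of 52 at 4-fold. T cells had at least 2 *Cd3d*, *Cd3e* and *Cd3g* UMIs and no *Cd79a* or *Cd79b*. Genes were named by rank: the 15 highest and lowest immature over mature ratios of the same sign in both libraries, and the 10 highest and lowest twi over WT. Members, classes and gene lists were chosen with earlier results of these data known. Doublets were treated as an alternative only: Scrublet called 4 WT and 6 twi barcodes, none of them an immature cell. Promoters came from RefSeq tables of GRCm38.p6. Python 3.11.15, numpy 2.4.6, scipy 1.17.1, pandas 2.3.3, scanpy 1.11.5 and matplotlib 3.10.9 were used.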

Additional observations from a re-analysis of the deposited data

How the results depend on the processing

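The smaller share of immature cells among all cells in twi, the smaller *Rag1* or *Rag2* class and the lower MHC class II level against mature cells kept their direction under every alternative run. No paired analysis was possible because each genotype had 1 library. CPM without immunoglobulin genes was not run, since the matrix holds none, and without *Sox4* the third class has no cells. Without *Sox4* among the early B genes, the share of all cells was 10.1% in WT and 1.24% in twi (ratio 0.123), and that of B lineage cells 23.3% and 10.1% (ratio 0.432). With at least 2 early B UMIs, the shares were 14.9% and 2.82% of all cells and 34.6% and 22.8% of B lineage cells, and the WT *Rag1* or *Rag2* and *Sox4* classes 50% and 40.5%. Thinned to 1000 UMIs before gating, WT was 18.0% of all cells, B lineage shares were 42.7% and 29.4%, and the WT classes 32.4% and 61.0%; classed again after gating, a choice made after seeing the data, they were 33.2% and 60.5%. In cells with a Y-linked transcript, the twi share was 7.73% (ratio 0.380), and 50% of B lineage cells (ratio 1.06), where the direction turned.

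The MHC class II twi over WT ratio was below 1, at 0.817 (0.618 to 1.06), without *Sox4*. It was 1.27 with 1 *Cd79a* or *Cd79b* UMI, 1.24 with 2 early B UMIs, 1.57 thinned and 1.10 in Y-linked cells. Against mature WT cells it was 0.342 and 0.290 with 1 and 4 *Cd79a* or *Cd79b* UMIs, 0.201 with 2 early B UMIs, 0.0914 without *Sox4*, 0.277 thinned and 0.332 in Y-linked cells. In twi it was 0.383 with 4 such UMIs and also with *Cd79a* required, 0.226 with 2 early B UMIs, 0.0681 without *Sox4* and 0.347 in Y-linked cells.

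Gene counts moved most. Genes higher in twi numbered 37 with 1 *Cd79a* or *Cd79b* UMI, 1 without *Sox4* and 2 in Y-linked cells. They numbered 77 with a minimum of 10 UMIs and no CPM minimum, and 1 with a minimum of 50 UMIs. Lower genes numbered 73 with 2 early B UMIs, 156 without *Sox4*, 105 thinned, 127 in Y-linked cells, and 570 with 10 UMIs and no CPM minimum. Only 1 was lower with the same CPM minimum, chosen after seeing the data, where the median log2 ratio was 0.035 in place of -0.10. Genes higher than in mature cells in both libraries numbered 9 without *Sox4*, 7 thinned and 7 in Y-linked cells. They numbered 67 with 10 UMIs and no CPM minimum, and 11 with a minimum of 50 UMIs. Lower genes numbered 46 with 2 early B UMIs, 59 without *Sox4*, 13 thinned and 7 in Y-linked cells. They numbered 75 with 10 UMIs and no CPM minimum, and 17 with *Cd79a* required. The causes were not tested. The twi values rest on 56 cells.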

Other observations

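Of the homing and retention list, 6 genes were measured between the libraries and all lay below 0 on the log2 scale, twi over WT, as did 845 of all 1321 measured genes. None passed 2-fold, and the summed ratio was 0.943 (0.848 to 1.05), with a median log2 ratio of -0.31 twi over WT against -0.10 over all measured genes. The minimum asked for a higher level in twi, as given above, which favors values below 0. No change is therefore read from these signs and medians. Against mature cells, 0 of 8 measured in WT and 2 of 4 in twi were lower past 2-fold, against 4.02% and 5.73% of all measured genes, among the latter *Ccr7*, which guides lymphocytes to lymph nodes, at 155 against 349 CPM. *Cxcr4*, which holds B cell precursors in the marrow, was at 115 CPM in WT and 57.3 CPM in twi (7 UMIs), a log2 ratio of -0.92 with the pseudocount. *Klf2*, a factor of quiescent lymphocytes, was the most abundant member, at 2614.3 and 2560.3 CPM.

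Of the 25 interferon-stimulated genes 3 were measured between genotypes, and 0 passed 2-fold. Since 0.379% of all measured genes were higher and 2.88% lower, nothing is read from 0 of 3. The 25 genes of the list summed to 2292 CPM in WT and 2061 CPM in twi, a ratio of 0.899 (0.782 to 1.03). *Isg15* was at 24.5 CPM in WT and 16.4 CPM in twi immature cells, against 105 and 344 CPM in T cells of the same libraries. *Ifit3* was at 7.54 and 16.4 CPM against 36.4 and 154 CPM in T cells. The glucocorticoid-responsive list had 4 measured genes and 0 past 2-fold, likewise too few to read beside those shares. Its summed ratio was 1.07 (0.912 to 1.26). The immediate early and stress list had a ratio of 0.838 (0.783 to 0.897), with 1 of 9 measured genes, *Fosb*, lower past 2-fold at 81.8 against 179 CPM, where 2.88% of all measured genes were lower. Cell cycle genes outside the gate had 1 of 4 measured lower, *H2afx*, at 49.1 against 109 CPM, and 0 higher past 2-fold, but 3 of 4 lay above 0, with a median log2 ratio of 0.36. Their list summed to 2528 CPM in twi and 1917 CPM in WT, a ratio of 1.32, where 56 of the list's 309 UMIs in twi were *Hmgb2* in 1 cell. *Galc* had 0 UMIs in immature cells of both libraries, which allows up to 5.65 CPM in WT and 24.5 CPM in twi, so the mutated gene could not be checked in them.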
